A study of Homo sapiens with 14 samples.

Results

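The genes of the proteasome were followed in RS4;11 cells through 24 h of dexamethasone. A gene was a member when a probe set annotated with exactly 1 gene carried a symbol that begins with PSMA, PSMB, PSMC, PSMD, PSME, PSMF or PSMG and a number. The rule found 65 of the 22277 probe sets on the array, for 41 of 11963 genes. Of these genes 39, on 62 probe sets, encode subunits, caps, regulators or assembly factors of the proteasome. The other 2, PSMC3IP and PSME3IP1, encode proteins that are only named for binding a proteasome component, and they are described apart. The 39 genes comprised 6 of the alpha ring, 7 of the beta ring, 3 of the immunoproteasome, 8 of the base and 6 of the lid of the 19S particle, 5 assembly factors and 4 genes of alternative caps and the regulator PSMF1. PSMA6 and PSME2 had only probe sets shared with other genes, and PSMA8, PSMB11, PSMC5, PSMD7, PSMD13, PSMG3 and PSMG4 had no probe set of their own, so these 9 genes were not analysed here.

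RS4;11 is an established human line of B-precursor acute lymphoblastic leukemia with a rearranged KMT2A gene. The cells were kept in hormone-depleted (charcoal-dextran treated) serum before each experiment, and RNA was measured on 14 Affymetrix arrays: 4 with untreated cells, 5 with cells given 10 nM dexamethasone for 8 h and 5 with cells given it for 24 h. Dexamethasone is a synthetic glucocorticoid and was added in ethanol. No untreated array of the later times was used here, so time in culture and dexamethasone cannot be told apart. The labels call the untreated cells a no treatment control and name no ethanol control. Ethanol and dexamethasone therefore cannot be told apart either. The labels do not say whether replicates were separate cultures, so a p-value here reflects the spread from array to array, which can be technical. In these bulk samples, fewer cells of a type and less RNA per cell cannot be told apart. The date in the labels places the arrays in 5 runs, numbered here without regard to order: runs 1 and 2 share day 1, runs 3 and 4 are day 2 and day 3, and run 5, on day 4, has no untreated array. The labels do not say whether that date is of culture, RNA extraction or scan, so runs and days below mean only arrays that share a date label, with a letter that tells runs 1 and 2 apart. Per-array values below are given in the order of the runs, as log2 levels from the RMA method, where a step of 1 is a 2-fold change.

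The proteasome degrades proteins marked with ubiquitin. Its 20S core is a barrel of outer alpha rings and inner beta rings, and the beta subunits PSMB5, PSMB6 and PSMB7 carry the cutting sites. A 19S particle at the end of the barrel binds the marked protein, removes the ubiquitin and threads the chain inside with a ring of ATPases. In lymphoid cells and after interferon, PSMB8, PSMB9 and PSMB10 replace PSMB5, PSMB6 and PSMB7 to form the immunoproteasome, which favours peptides that fit MHC class I. Glucocorticoids kill many lymphoid leukemia cells, and proteasome inhibitors are drugs of lymphoid cancers.

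Array medians over all probe sets ranged over 6.03 to 6.05 (untreated), 6.03 to 6.09 (8 h) and 6.07 to 6.11 (24 h). Of 10 precursor B-cell markers, 8 lay above the median level of all genes (6.34), with BLNK and DNTT below it. This held for 2 of 9 T and NK cell markers, 0 of 9 monocyte and granulocyte markers and 1 of 6 erythroid and platelet markers. Against untreated cells at 24 h, 4 of the 10 precursor B-cell markers were higher and 4 lower, and 0 of 9 T and NK cell markers passed. Of the 9 monocyte and granulocyte markers 2 were higher and 1 lower, and of the 6 erythroid and platelet markers 1 was higher (GP9) and 1 lower. Of all genes tested, 19.5% were higher and 20.9% lower, so the monocyte and erythroid counts were near these shares. The summed linear signal of the T and NK list lay between 962 and 1105 at 24 h and between 941 and 1052 in untreated cells. That of the monocyte list lay between 169 and 198 at 24 h and between 162 and 196 in untreated cells, and that of the erythroid and platelet list between 281 and 336 at 24 h and between 204 and 233 in untreated cells. At 8 h the T and NK sum (745 to 868) and the precursor B sum (22932 to 26314) lay below the untreated arrays (941 to 1052 and 26513 to 29010), the erythroid and platelet sum (251 to 281) lay above them, and the monocyte sum was 160 to 172. The T and NK cell markers above the median level of all genes were LCK (8.67 on average) and NKG7, and the erythroid and platelet marker was GP9 (6.95). LCK had the lowest difference of its list at 8 h (-0.46). The defining T cell genes CD3D, CD3E and CD3G and the monocyte genes CD14 and LYZ stood below that median. The part of these shifts in the results was not tested.

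Most proteasome genes were lower after 24 h of dexamethasone. Against untreated cells, 26 of 39 were lower and 0 higher at an adjusted p below 0.05 (limma over all 14 arrays, Benjamini-Hochberg over 11963 genes), where 20.9% of all genes tested were lower and 19.5% higher. The median difference of the 39 was -0.32, against -0.02 over all genes. In 23 of the 39 genes the 24 h and untreated arrays did not overlap, where this held for 35.3% of all genes. With the run as a block, 28 of 39 were lower, among them all 26, with PSMA1 and PSMD2 added, and 2 were higher, PSMB4 and PSMB8 (24.0% of all genes lower and 22.2% higher in that fit). The changes were moderate: the largest, that of the assembly factor PSMG1, left 0.578 times the untreated signal.

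The fall at 24 h ran through the core and the 19S particle. It took in 11 of the 13 genes of the constitutive 20S core, 9 of the 14 genes of the 19S particle and 2 of the 3 immunoproteasome genes, against 2 of 5 assembly factors and 2 of 4 genes of the caps and PSMF1. The class medians at 24 h against untreated cells were -0.42 in the alpha ring, -0.35 in the beta ring, -0.28 in the immunoproteasome, -0.23 in the base, -0.32 in the lid, -0.09 in the assembly factors and -0.25 in the caps with PSMF1. No test between classes was made. The 13 genes that did not pass were PSMA1 (-0.22), PSMB4 (0.12), PSMB8 (0.17), PSMC1 (-0.08), PSMD2 (-0.20), PSMD4 (-0.05), PSMD6 (-0.02), PSMD11 (-0.18), PSMD5 (0.01), PSMD9 (-0.03), PSMD10 (-0.09), PSME4 (0.05) and PSMF1 (-0.02).

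**Figure D1:**
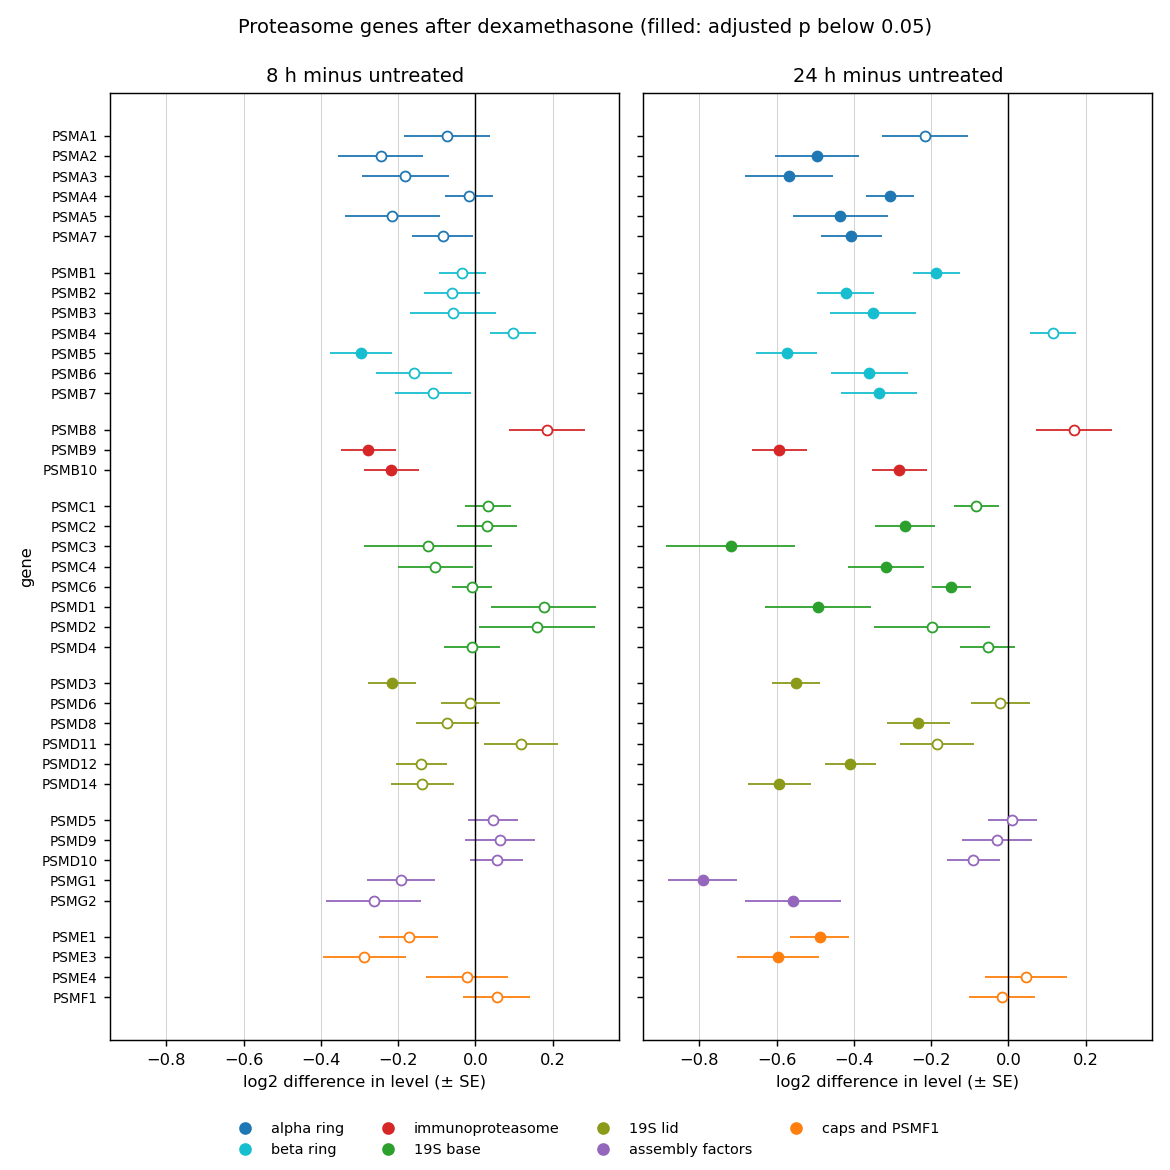
Log2 difference of each of the 39 proteasome genes from untreated cells, with its standard error, after 8 h (left) and 24 h (right) of 10 nM dexamethasone. Genes run down the page by class, filled points passed at an adjusted p below 0.05 (limma, no block), and 26 genes are filled at 24 h, against 4 at 8 h.

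At 8 h the change was small and differed between days. Against untreated cells 4 of 39 genes were lower and 0 higher, where 11.0% of all genes were lower and 8.69% higher, so the share of proteasome genes was near that of all genes. The 4 were PSMB5 (-0.30), PSMB9 (-0.28), PSMB10 (-0.22) and PSMD3 (-0.22). The arrays of 8 h and untreated cells did not overlap in these 4 genes and in no other of the 39, where 18.2% of all genes did not overlap. With the run as a block 6 were lower, with PSMA2 and PSMG2 added to the 4, and 1, PSMB8, was higher (15.2% of all genes lower and 11.9% higher in that fit).

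Within the runs the median of the 39 differences between 8 h and untreated cells was 0.06 in run 1, 0.07 in run 2, -0.12 in run 3 and -0.16 in run 4. Runs 1 and 2, which share a day, each had 25 genes above 0 and 14 below, while run 3 had 8 above and 31 below and run 4 had 6 above and 33 below. Fitted on day 1 alone, 4 genes were higher at 8 h (PSMD1, PSMD2, PSMD11 and PSME4) and 2 lower (PSMB9 and PSMG2), where 9.41% of all genes were higher and 10.6% lower, so the 4 were near the share of all genes. Fitted on the other days, 1 was higher (PSMB8) and 13 were lower, where 9.78% of all genes were higher and 12.4% lower. The difference between days was not tested. Over the 4 runs, 10 genes were below 0 and 2 (PSMB4 and PSMB8) above 0 in each. The share of all genes with the same sign in every run is not given here.

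At 24 h against untreated cells the run medians were -0.14, -0.23, -0.32 and -0.44 in runs 1 to 4, with 29, 30, 37 and 36 of 39 genes below 0. All 4 medians were below 0, but day 1 had the smaller ones, and a fit on day 1 alone called 16 genes lower and 1 higher (PSME4), against 29 lower and 1 higher (PSMB8) on the other days. Of all 11963 genes, 2272 were lower and 2177 higher on day 1 alone, and 2605 lower and 2363 higher on the other days. The 10 calls lost on day 1 alone were those of PSMA7, PSMB1, PSMB3, PSMB6, PSMB10, PSMC2, PSMC4, PSMC6, PSMD1 and PSMD8. In that comparison 28 genes were below 0 in all 4 runs, and PSMB4 and PSMB8 above 0 in all 4. For these counts, too, the share of all genes is not given here.

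**Figure D2:**
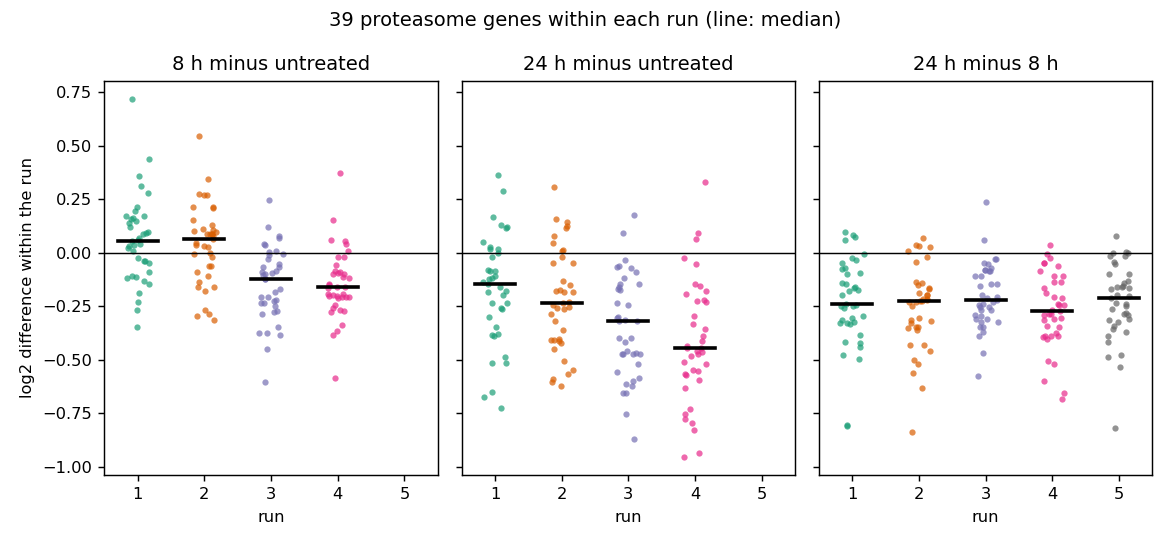
Log2 difference of each of the 39 proteasome genes (points) within each run, with the median as a line, for 8 h minus untreated (left), 24 h minus untreated (middle) and 24 h minus 8 h (right); run 5 has no untreated array. At 8 h the medians are above 0 in runs 1 and 2 and below 0 in runs 3 and 4, while the medians of 24 h minus 8 h lie between -0.27 and -0.21 in all 5 runs.

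The step between 8 h and 24 h did not differ in that way. The run medians of 24 h minus 8 h were -0.24, -0.23, -0.22, -0.27 and -0.21. Of the 39 genes, 30 were below 0 in all 5 runs and 0 above 0 in all 5. The share of all genes below 0 in every run is not given here, so this count is not read as particular to proteasome genes. Against 8 h, 18 of 39 genes were lower at 24 h and 0 higher, where 13.7% of all genes were lower and 14.6% higher. The median of the 39 was -0.25, and the arrays did not overlap in 15 of 39 genes, where 22.4% of all genes did not overlap. With the run as a block 26 of 39 were lower, among them all 18, where 17.4% of all genes were lower. The genes added by the block were PSMA1, PSMA2, PSMA5, PSMB6, PSMB7, PSMD2, PSMD8 and PSMG2. The 2 comparisons with untreated cells share the untreated arrays, and this one shares arrays with both.

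In the alpha ring, the gate of the core barrel, 5 of 6 genes were lower at 24 h than in untreated cells, by between 0.31 (PSMA4) and 0.57 (PSMA3). PSMA2 had levels of 9.72, 9.78, 9.57 and 9.55 in untreated cells, of 9.57, 9.68, 9.18, 9.35 and 9.27 after 8 h, and of 9.33, 9.37, 9.10, 9.01 and 8.98 at 24 h. Every 24 h array was below every untreated array, and the 8 h arrays overlapped both groups. The 24 h difference of PSMA2 was -0.50 ± 0.11 (SE, adjusted p = 0.00143, limma). At 8 h its difference of -0.25 did not pass (adjusted p = 0.143) and with the run as a block it did (-0.21, adjusted p = 0.0160).

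PSMA4 and PSMA7, also alpha ring subunits, showed the day in the untreated arrays. PSMA4 stood at 11.98 and 11.99 in the untreated arrays of day 1 and at 12.18 and 12.19 in the other untreated arrays. Its 8 h arrays read 12.08, 12.08, 12.08, 12.09 and 12.01, inside the untreated range, and its 24 h arrays 11.79, 11.75, 11.86, 11.83 and 11.67, below both other groups. The 24 h difference of PSMA4 from untreated cells was -0.31 ± 0.06 (SE, adjusted p = 0.000701, limma), nearly all of it after 8 h (-0.29 ± 0.06, adjusted p = 0.00122). PSMA7 had 10.48, 10.60, 10.73 and 10.81 in untreated cells, 10.63, 10.71, 10.49, 10.61 and 10.41 after 8 h, and 10.31, 10.37, 10.17, 10.24 and 10.16 at 24 h. It fell by 0.41 at 24 h (adjusted p = 0.000519, limma), although on day 1 alone its difference of -0.20 did not pass (adjusted p = 0.0723). PSMA1, the member of this ring that did not pass, was lower with a run block (-0.18, adjusted p = 0.00404).

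In the beta ring 6 of 7 genes were lower at 24 h than in untreated cells, and PSMB4 was not. PSMB2, a structural subunit, had levels of 8.98, 8.88, 8.86 and 9.04 in untreated cells, of 9.05, 8.96, 8.81, 8.80 and 8.78 after 8 h, and of 8.63, 8.61, 8.46, 8.41 and 8.47 at 24 h. The 24 h arrays lay below both other groups, which overlapped each other, and the difference from 8 h was -0.36 ± 0.07 (SE, adjusted p = 0.000826, limma). PSMB4, another structural subunit, read between 12.01 and 12.18 at 24 h, against 11.92 to 12.04 in untreated cells. Its difference of 0.12 at 24 h did not pass (adjusted p = 0.142) and passed with a run block (0.13, adjusted p = 0.0281), the opposite direction to its neighbours in the ring. PSMB1 (-0.19) and PSMB3 (-0.35) were lower with groups that overlapped by 0.02.

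The 3 catalytic subunits of the constitutive core were lower at 24 h. PSMB5, which carries the chymotrypsin-like site and is the main target of bortezomib, stood at 10.23, 10.38, 10.22 and 10.22 in untreated cells, at 10.05, 10.10, 9.77, 10.02 and 9.90 after 8 h, and at 9.72, 9.87, 9.56, 9.71 and 9.58 at 24 h. Both treated groups lay below every untreated array, and in each run the level at 24 h was below that at 8 h. PSMB5 was lower by -0.30 ± 0.08 at 8 h (SE, adjusted p = 0.0142, limma) and by -0.57 ± 0.08 at 24 h (adjusted p = 1.88e-05), or 0.672 times the untreated signal. Its 8 h call rested on untreated replicate 2 (run 2), the highest untreated array: without it the difference was -0.26 (adjusted p = 0.0557). It did not pass on day 1 alone either (-0.24, adjusted p = 0.101).

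PSMB6, of the caspase-like site, had 11.27, 11.36, 11.20 and 11.25 in untreated cells, 11.30, 11.30, 10.98, 11.00 and 10.98 after 8 h, and 11.12, 11.10, 10.73, 10.79 and 10.81 at 24 h. At 8 h the day 1 arrays stayed within the untreated range and the other 3 fell below it. PSMB6 was lower at 24 h (-0.36 ± 0.10, adjusted p = 0.00770, limma), and on day 1 alone its difference of -0.20 did not pass (adjusted p = 0.0538). PSMB7, of the trypsin-like site, had 11.59, 11.71, 11.37 and 11.55 in untreated cells, 11.55, 11.62, 11.31, 11.45 and 11.29 after 8 h, and 11.35, 11.46, 11.05, 11.14 and 11.10 at 24 h. Runs 1 to 4 kept their order in the 3 groups, the 24 h array of run 2 lay within the untreated range, and the difference of PSMB7 at 24 h was -0.33 ± 0.10 (adjusted p = 0.0116, limma).

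The immunoproteasome subunits did not move as one. PSMB9, which replaces PSMB6, had 10.40, 10.50, 10.30 and 10.31 in untreated cells, 10.14, 10.20, 9.92, 10.10 and 10.13 after 8 h, and 9.89, 9.89, 9.68, 9.72 and 9.74 at 24 h. The 3 groups did not overlap. PSMB9 was lower by -0.28 ± 0.07 at 8 h (SE, adjusted p = 0.0108, limma), by -0.59 ± 0.07 at 24 h (adjusted p = 3.89e-06) and by -0.32 ± 0.07 between 8 h and 24 h (adjusted p = 0.00187). On day 1 alone and on the other days alone it was lower as well, at 8 h (-0.28 and -0.25) and at 24 h (-0.56 and -0.59).

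PSMB10, which replaces PSMB7, stood at 10.49, 10.64, 10.48 and 10.47 in untreated cells, at 10.38, 10.38, 10.24, 10.31 and 10.20 after 8 h, and at 10.33, 10.41, 10.17, 10.18 and 10.10 at 24 h. Both treated groups were below the untreated arrays and overlapped each other. The difference of PSMB10 was -0.22 ± 0.07 at 8 h (adjusted p = 0.0413, limma) and -0.28 ± 0.07 at 24 h (adjusted p = 0.00410). The 8 h call of PSMB10 was lost when any of 7 arrays was left out, with an adjusted p of up to 0.141 without untreated replicate 2. On day 1 alone PSMB10 passed neither at 8 h (-0.19, adjusted p = 0.140) nor at 24 h (-0.19, adjusted p = 0.0916).

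PSMB8, which replaces PSMB5, was not lower. Its levels were 11.28, 11.38, 11.01 and 10.96 in untreated cells, 11.44, 11.47, 11.26, 11.34 and 11.21 after 8 h, and 11.41, 11.54, 11.19, 11.29 and 11.21 at 24 h. The groups overlapped over all arrays, since the untreated arrays of day 1 stood higher than the others, but within each of the 4 runs the treated arrays were above the untreated one. The difference of PSMB8 was 0.19 ± 0.10 at 8 h (adjusted p = 0.229, limma) and 0.17 ± 0.10 at 24 h (adjusted p = 0.198). With the run as a block PSMB8 was higher, by 0.22 at 8 h (adjusted p = 0.00896) and by 0.20 at 24 h (adjusted p = 0.00738).

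**Figure D3:**
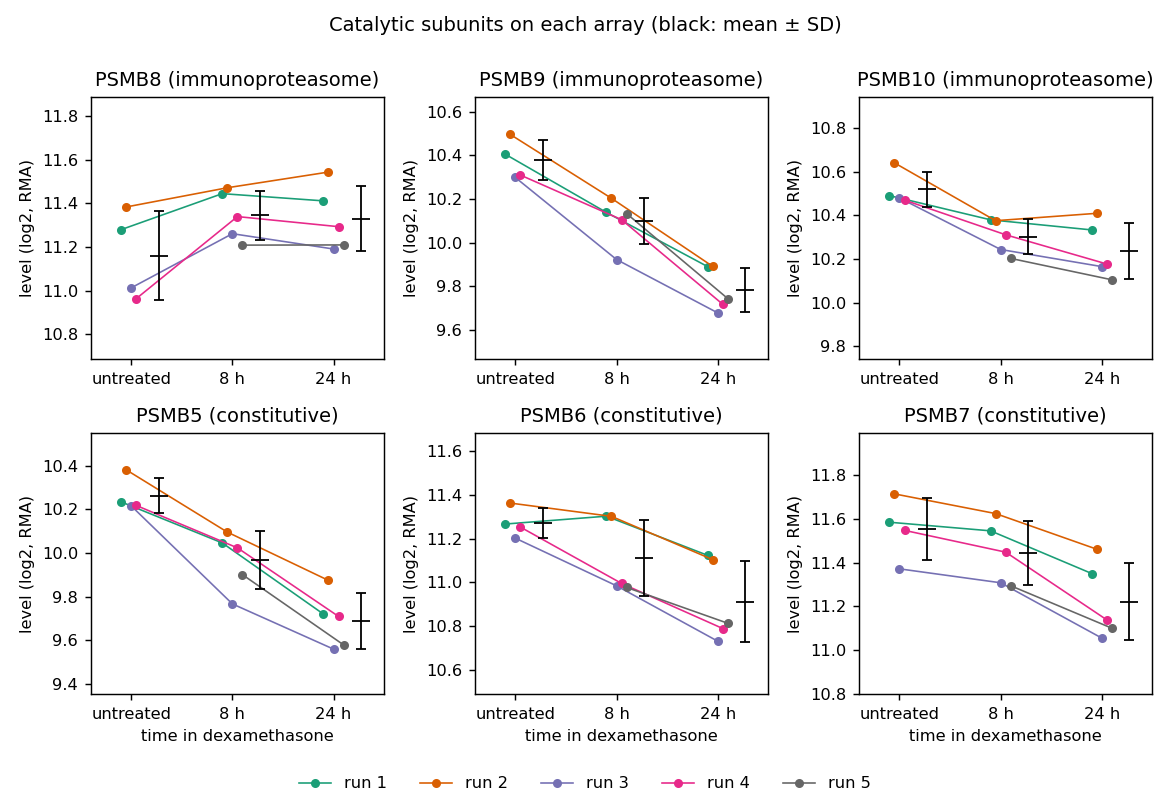
Log2 level of the 3 immunoproteasome subunits (top) above the constitutive subunit each replaces (bottom) on every array, untreated and after 8 h and 24 h of dexamethasone, with lines joining the arrays of a run and the mean ± SD in black. The 6 panels span the same number of log2 units, and PSMB8 is above its untreated level in each run where the other 5 genes end lower at 24 h.

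The difference between each immunoproteasome subunit and the one it replaces was taken within each array, which cancels what an array adds to both. Levels of different probe sets have no common scale, so only the change of a difference between groups is read. PSMB8 minus PSMB5 averaged 0.90 ± 0.15 in untreated cells (SD, n = 4), 1.38 ± 0.08 at 8 h and 1.64 ± 0.04 at 24 h (n = 5 each), with no overlap between any groups. It was greater by 0.48 at 8 h and by 0.74 at 24 h than in untreated cells, and by 0.26 at 24 h than at 8 h (adjusted p = 0.0286 for each, exact two-sided permutation tests, Benjamini-Hochberg over the 9 comparisons of pairs). Within the runs it was greater in each, by 0.35 to 0.70 at 8 h and by 0.65 to 0.84 at 24 h. Behind it at 24 h were log2 differences from untreated cells of -0.57 in PSMB5 and 0.17 in PSMB8, which did not pass on its own.

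The other pairs moved less. PSMB9 minus PSMB6 was -0.89 ± 0.04 in untreated cells, -1.01 ± 0.14 at 8 h and -1.13 ± 0.09 at 24 h, and the difference of -0.23 between 24 h and untreated cells passed (adjusted p = 0.0286, exact permutation test). At 8 h its change of -0.12 did not pass (adjusted p = 0.214), with run values between -0.30 and 0.05. PSMB10 minus PSMB7 was -1.03 ± 0.10 in untreated cells, -1.14 ± 0.07 at 8 h and -0.98 ± 0.06 at 24 h. Its difference from untreated cells passed neither at 8 h (-0.11, adjusted p = 0.167) nor at 24 h (0.05, adjusted p = 0.333), and between 8 h and 24 h it was greater by 0.16 (adjusted p = 0.0286). An exact sign-flip permutation test of the differences within runs cannot reach the threshold with 4 or 5 runs, and its smallest adjusted p was 0.141. No other blocked test of the pairs was made. Each pair comparison that passed had the smallest p its exact permutation test can give (0.0159 or 0.00794). Their shared adjusted p of 0.0286 therefore does not rank the changes.

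**Figure D4:**
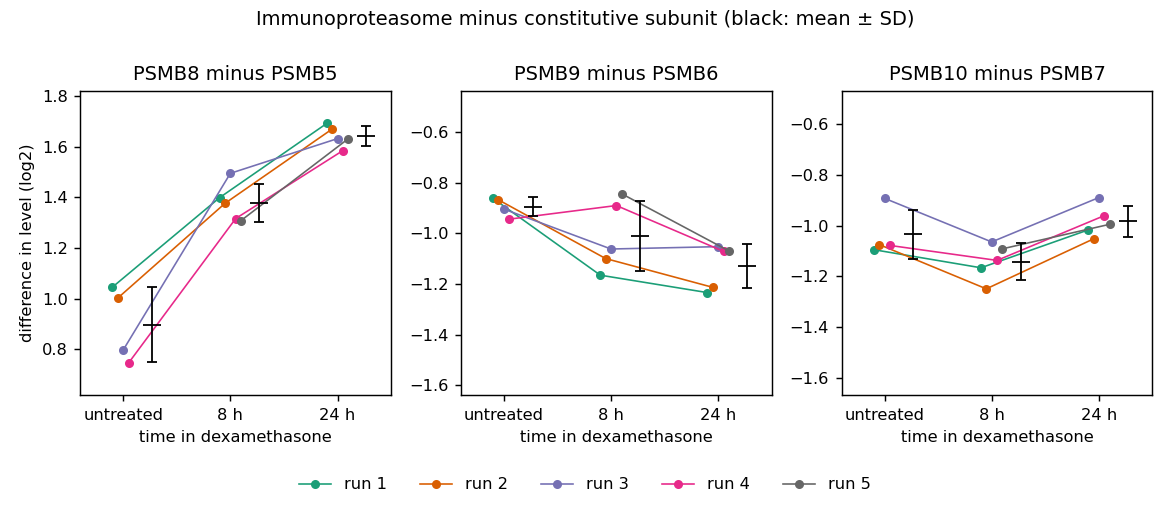
Difference in log2 level between an immunoproteasome subunit and the constitutive subunit it replaces on each array, untreated and after 8 h and 24 h of dexamethasone, with lines joining the arrays of a run and the mean ± SD in black. PSMB8 minus PSMB5 rises to 1.64 on average at 24 h, against 0.90 in untreated cells, and the other pairs change by at most 0.23 against untreated cells.

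PSMB8 and PSMB9 lie beside TAP1 and TAP2 in the MHC region of chromosome 6, and TAP1, a subunit of the pump that carries proteasome peptides to MHC class I, moved the opposite way to PSMB9. TAP1 had 8.59, 8.68, 8.64 and 8.61 in untreated cells, 9.16, 9.22, 9.41, 9.53 and 9.42 after 8 h, and 9.35, 9.43, 9.51, 9.74 and 9.70 at 24 h, so both treated groups were above every untreated array. It was higher by 0.72 at 8 h and by 0.92 ± 0.09 at 24 h (SE, adjusted p = 3.55e-07, limma), where PSMB9 fell. The difference between the changes of both genes was not tested. TAP2, the other subunit of the pump, was lower at 24 h (-0.26, adjusted p = 0.00388), with levels of 5.19, 5.17, 5.10, 4.95 and 5.19 at 24 h, against 5.30, 5.38, 5.39 and 5.44 in untreated cells.

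TAP1 and PSMB9 are transcribed away from each other, and the DNA between them is known as a promoter that both share. In the RefSeq annotation (GRCh38.p14) their start sites, at 32853704 and 32854192, have 487 bases between them. The bases before the PSMB9 start are shown because a gene that fell reads out of this stretch to one side and a gene that rose to the other (chr6:32853942-32854191, plus strand). Capitals mark a match, on the opposite strand, to TGACNNNGC, the core of the antioxidant response element. The second sequence lies on the TAP1 side of the same stretch, read towards TAP1 (chr6:32853816-32853845, minus strand), with capitals on 2 overlapping matches of the interferon-type element (GAAA, any 2 bases, GAAA) on the opposite strand.
PSMB9: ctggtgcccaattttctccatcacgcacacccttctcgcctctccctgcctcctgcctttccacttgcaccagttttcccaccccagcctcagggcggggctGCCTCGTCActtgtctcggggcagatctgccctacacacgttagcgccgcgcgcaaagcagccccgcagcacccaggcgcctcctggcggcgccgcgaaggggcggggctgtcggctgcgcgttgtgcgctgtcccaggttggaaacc
TAP1: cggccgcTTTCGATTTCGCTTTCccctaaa

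**Figure D5:**
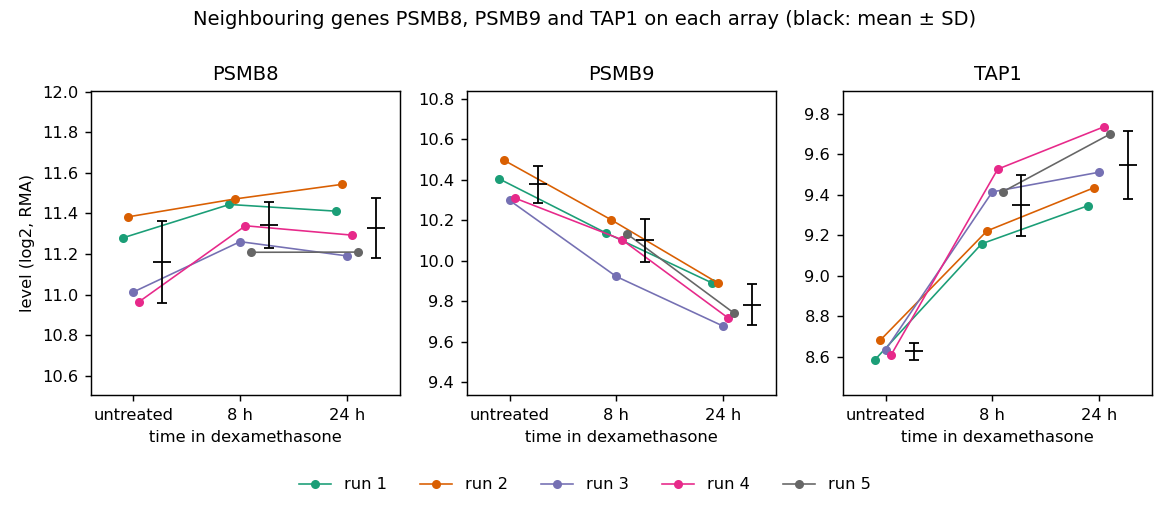
Log2 level of PSMB8, PSMB9 and TAP1, neighbours on chromosome 6, on each array, untreated and after 8 h and 24 h of dexamethasone, with lines joining the arrays of a run and the mean ± SD in black; the panels span the same number of log2 units. In each run PSMB9 is lower and TAP1 higher at 24 h than in untreated cells.

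In the base of the 19S particle, 4 of the 5 ATPases measured and the scaffold PSMD1 were lower at 24 h. PSMC3, an ATPase, had 9.96, 9.98, 9.50 and 9.87 in untreated cells, 10.12, 10.04, 9.41, 9.60 and 9.35 after 8 h, and 9.31, 9.41, 9.05, 8.92 and 8.86 at 24 h. The 24 h arrays were below the untreated ones, with a wide spread between runs at 8 h. PSMC3 was lower by -0.72 ± 0.17 at 24 h (SE, adjusted p = 0.00218, limma), or 0.608 times the untreated signal. PSMC2 (-0.27), PSMC4 (-0.32) and PSMC6 (-0.15) were lower too.

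PSMD1, the large scaffold of the base, differed between days. Its untreated arrays stood at 9.40 and 9.50 on day 1 and at 10.01 and 10.27 on the other days. Its 8 h arrays read 10.12, 10.05, 9.93, 9.93 and 9.83, and its 24 h arrays 9.31, 9.21, 9.36, 9.33 and 9.30, closer together than the untreated ones and below both other groups. At 8 h PSMD1 was higher on day 1 alone (0.63, adjusted p = 0.00135, limma) and did not pass on the other days (-0.24, adjusted p = 0.0623). At 24 h it was lower than in untreated cells over all arrays (-0.49 ± 0.14, adjusted p = 0.00799) and did not pass on day 1 alone (-0.19, adjusted p = 0.0971). Between 8 h and 24 h it was lower by -0.67 ± 0.13 (adjusted p = 0.000843), on day 1 alone (-0.82) and on the other days alone (-0.57). Its 2 probe sets gave -0.70 and -0.64 in that comparison.

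In the lid, which removes ubiquitin chains, 4 of 6 genes were lower at 24 h. PSMD3 stood at 9.09, 9.14, 9.20 and 9.23 in untreated cells, at 8.98, 8.98, 8.83, 9.01 and 8.94 after 8 h, and at 8.60, 8.55, 8.68, 8.50 and 8.74 at 24 h, with no overlap between the 3 groups. It was lower by -0.22 ± 0.06 at 8 h (SE, adjusted p = 0.0225, limma) and by -0.55 ± 0.06 at 24 h (adjusted p = 2.14e-06). The 8 h call was lost without 8 h replicate 3 (adjusted p = 0.0626), untreated replicate 3 (0.0588) or untreated replicate 4 (0.0650), and on day 1 alone (-0.13, adjusted p = 0.216). PSMD14, the enzyme that cuts the ubiquitin chain from the substrate, had 10.86, 11.00, 10.94 and 11.09 in untreated cells, 10.95, 10.98, 10.71, 10.81 and 10.71 after 8 h, and 10.47, 10.55, 10.32, 10.31 and 10.23 at 24 h. It was lower by -0.59 ± 0.08 at 24 h (adjusted p = 1.65e-05), of which -0.46 came between 8 h and 24 h. PSMD8 (-0.23) and PSMD12 (-0.41) were lower, and PSMD6 and PSMD11 did not pass.

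Of the 5 assembly factors, 2 were lower at 24 h. PSMG1 and PSMG2, which together start the alpha ring of the core, were lower, while PSMD5, PSMD9 and PSMD10, chaperones of the base, did not pass, with differences between -0.09 and 0.01. PSMG1 had 10.57, 10.64, 10.52 and 10.61 in untreated cells, 10.34, 10.58, 10.23, 10.47 and 10.34 after 8 h, and 9.85, 10.01, 9.76, 9.82 and 9.53 at 24 h. The 24 h arrays lay 0.50 below the lowest untreated array. PSMG1 was lower by -0.79 ± 0.09 at 24 h (SE, adjusted p = 1.63e-06, limma) and by -0.60 ± 0.08 between 8 h and 24 h (adjusted p = 4.22e-05). PSMG2 was lower by -0.56 at 24 h (adjusted p = 0.00154).

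Among the caps, PSME1, the alpha subunit of the interferon-inducible PA28, and PSME3, its nuclear relative PA28 gamma, were lower at 24 h, and PSME4, which forms PA200, was not. PSME1 had 12.29, 12.36, 12.20 and 12.22 in untreated cells, 12.16, 12.20, 11.99, 12.10 and 12.02 after 8 h, and 11.91, 11.96, 11.73, 11.70 and 11.60 at 24 h. The 24 h arrays were below both other groups, and the difference of PSME1 from untreated cells was -0.49 ± 0.08 (SE, adjusted p = 6.92e-05, limma). PSME3 had 7.40 and 7.46 in the untreated arrays of day 1 and 7.94 and 7.97 in the others, and its 8 h arrays read 7.44, 7.58, 7.33, 7.38 and 7.29. At 24 h it stood at 7.14, 7.06, 7.07, 7.14 and 7.08, below both other groups (-0.60 ± 0.11 against untreated cells, adjusted p = 0.000238). PSME4 was at 0.05 on average and went with the day: it was higher on day 1 alone (0.34, adjusted p = 0.00749) and did not pass on the other days (-0.22, adjusted p = 0.118). PSMF1, a regulator that binds the core, differed by -0.02.

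The genes that only share the prefix differed from each other, and only PSMC3IP lay outside the range of the 39 genes. PSMC3IP, a partner of the recombinases of homologous recombination, had 6.70, 6.51, 6.66, 6.52 and 6.50 at 24 h, against 8.14, 8.07, 7.78 and 7.85 in untreated cells. It was lower by -1.38 ± 0.07 (SE, adjusted p = 3.44e-10, limma), more than any of the 39 genes. Its 2 probe sets gave -0.96 and -1.80. PSME3IP1 did not pass at 24 h (-0.16, adjusted p = 0.114).

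Genes with several probe sets mostly gave one direction at 24 h. Of the 62 probe sets fitted singly, 35 were lower and 0 higher, where 18.6% of all probe sets were lower and 18.5% higher. For PSMB2 the bright probe set (mean level 11.32) gave -0.62 and the dim one (6.22) -0.22. For PSMB1 the 2 bright probe sets (12.24 and 12.40) gave -0.33 and -0.28 and a dim one (4.38) gave 0.05, so its gene mean understates the bright ones. For PSMD4, the ubiquitin receptor, 3 bright probe sets gave between -0.17 and -0.10 and a dim one (4.66) gave 0.16, and none passed. The 4 probe sets of PSME3 gave between -0.72 and -0.40.

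Factors that work with the proteasome but carry other names were counted against the same shares of all genes (20.9% lower and 19.5% higher at 24 h). Of 10 other parts and bound factors, 3 were lower and 1 higher at 24 h against untreated cells, and 6 lower and 2 higher with the run as a block (24.0% and 22.2% of all genes). Without the block these counts were near or below the shares of all genes. UCHL5, a deubiquitinase of the 19S particle, had 8.16, 8.02, 7.93, 8.01 and 7.83 at 24 h, against 9.14, 9.05, 8.88 and 9.11 in untreated cells. Its difference of -1.06 (adjusted p = 1.59e-08, limma) was larger than that of any of the 39 genes. USP14, the other deubiquitinase that docks there (-0.33), and PAAF1, a base chaperone (-0.38), were lower, and ZFAND5, a zinc-finger activator, was higher (0.55). Of 21 listed genes of ubiquitin and of delivery to the proteasome, only 11 had a single-gene probe set and were tested. Of these 11, 3 were lower and 1 higher, again near or below the shares of all genes. FAF1 (-0.58), UFD1 (-0.63) and RAD23B (-0.27) were lower and the shuttle UBQLN4 was higher (0.54). At 8 h, 1 of the 10 was lower (UCHL5, -0.45) and 1 higher (ZFAND5, 0.38), and 0 of the 11 were lower and 1 higher (UBQLN4, 0.38), where 11.0% of all genes were lower and 8.69% higher.

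Of 12 genes listed as regulators of proteasome gene transcription, 6 were higher and 3 lower at 24 h than in untreated cells. Of all genes, 19.5% were higher and 20.9% lower. The list was chosen with earlier results of these data known, so its count is not read as an excess of changed regulators. Whether these genes act on proteasome genes in these cells was not tested. NFIL3, a leucine-zipper factor, had 11.73, 11.81, 11.48, 11.44 and 11.57 at 24 h, against 9.28, 9.21, 9.14 and 9.01 in untreated cells, and 11.38, 11.36, 11.12, 11.11 and 11.15 at 8 h. Its difference from untreated cells was 2.44 at 24 h (adjusted p = 3.13e-12, limma) and 2.06 at 8 h. FOXO3 was higher (1.26), and NFYB, a subunit of the factor that binds CCAAT boxes (-0.72), and KEAP1, the inhibitor of NFE2L2 (-0.59), were lower. NFE2L1, which drives proteasome genes when the proteasome is inhibited, differed by 0.01 (adjusted p = 0.893, limma). NFE2L2, which drives genes with the antioxidant response element, was higher (0.34, adjusted p = 0.000565). Both lie outside the rule for named genes and were chosen after their values were seen.

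Of 14 genes of MHC class I presentation 4 were higher and 1 lower at 24 h, against the same 19.5% and 20.9% of all genes, with TAP1 and HLA-F (0.71) and the peptide trimmer ERAP2 (0.66) higher and TAP2 lower. Of 19 genes of interferon signalling 9 were higher and 3 lower, against the same shares. Both lists were chosen with earlier results of these data known, so their counts are not read as an excess. MX1, an antiviral GTPase (3.04), IRF9 (1.30) and the kinase JAK1 (0.84) were higher, and IFIT1 was lower (-1.14). IFIT1 was dim in both groups, at 4.80 to 5.10 in untreated cells and 3.67 to 4.01 at 24 h. The median level of all genes was 6.34. The interferon-inducible proteasome genes PSMB9, PSMB10 and PSME1 were lower in the same arrays, and PSMB8, also interferon-inducible, was not (0.17, and higher by 0.20 with the run as a block).

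Promoters were searched for motifs in the 250 bases before the first start site that RefSeq lists (GRCh38.p14), which was found for 34 of the 39 genes. The antioxidant response element TGACNNNGC, through which NFE2L1 and NFE2L2 act, was present on either strand in 10 of 34 member promoters (29.4%), in 11.9% of the promoters of genes on the array and in 10.9% of all 35116 promoters. The corresponding shares were 44.1%, 35.6% and 32% for CCAAT, 8.82%, 8.34% and 6.34% for the E-box CACGTG, and 11.8%, 5.8% and 6.57% for the STAT-type element TTCNNNGAA. They were 17.6%, 11.2% and 9.28% for the ETS-type element GGAAGTG, 20.6%, 12.8% and 8.52% for the ETS-type element CCGGAAG, and 8.82%, 2.56% and 3.02% for the interferon-type element. In PSME4 the GGAAGTG and CCGGAAG matches overlap. The interferon-type element was added after values were seen, and its share rests on 3 of the 34 member promoters. A match is a description of letters and not of binding.

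The antioxidant-type matches stand in genes of the lid, the caps and the assembly factors as well as the core. Those of 8 of these genes are shown with 10 bases on either side, that of PSMB9 stands above, and PSMD9 has 2 matches, not shown. They are given as a description only. Of the 10 genes with a match 7 were lower at 24 h, against 15 of the other 24 with a promoter, which are similar shares. PSMD5, PSMD9 and PSME4, of the 10, did not pass. The median difference at 24 h was -0.45 in the 10 genes and -0.27 in the 24, which was not tested. Each stretch is given in the direction of its gene, with the match in capitals, and a match that begins with GC is on the opposite strand.
PSMG1 (chr21:39183616-39183644, minus strand): gcccagggcaTGACAGCGCgggcgggcgg
PSMG2 (chr18:12658689-12658717, plus strand): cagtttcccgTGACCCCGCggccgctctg
PSMD3 (chr17:39980760-39980788, plus strand): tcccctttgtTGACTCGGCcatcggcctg
PSMD12 (chr17:67366724-67366752, minus strand): agacaaaaccTGACGCTGCaggctggagt
PSME1 (chr14:24136098-24136126, plus strand): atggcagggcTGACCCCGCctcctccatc
PSMB3 (chr17:38752627-38752655, plus strand): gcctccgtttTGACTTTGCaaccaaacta
PSMD5 (chr9:120843038-120843066, minus strand): tggctacagtTGACACGGCcctaacggag
PSME4 (chr2:53971009-53971037, minus strand): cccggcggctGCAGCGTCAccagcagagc
In PSMD3 the match begins 37 bases and in PSMG2 39 bases before the start, in PSME1 86, in PSMB3 104, in PSMD12 165 and in PSMG1 183.

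The 3 matches of the interferon-type element in the 250 bases searched of member promoters were in PSMB10, PSMB4 and PSMA4. The matches shown above between TAP1 and PSMB9 lie further than 250 bases from the PSMB9 start, so PSMB9 is not counted. The match of PSMB10 is shown because the gene is an interferon-inducible subunit that was lower here (chr16:67936852-67936881, minus strand).
PSMB10: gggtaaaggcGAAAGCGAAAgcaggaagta
PSMB4, with a match in its promoter too, was the beta ring gene that was not lower at 24 h, and PSMA4 was lower.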

How the data were processed

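RNA of RS4;11 cells was hybridised to 14 Affymetrix arrays. The authors corrected, normalized and summarized them with RMA (affy, version not given in the sources used here), left out 1 untreated array, and deposited log2 values. The mean per gene and the variance filter of the methods follow that step. The table has 22277 probe sets. Probe sets were named through the platform's annotation, in which 19070 have 1 gene, 1043 several and 2164 none. 0 columns were left unmapped. The log2 values of a gene's single-gene probe sets were averaged for 11963 genes, without the variance filter, which removes 13 of the 39 members.

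limma 3.58.1 (R 4.3.3; lmFit, eBayes) was fitted over all 14 arrays without a block, with Benjamini-Hochberg adjustment over all genes and a threshold of 0.05. The pairs of subunits were compared with exact permutation tests (scipy 1.17.1). Residuals of arrays of the same run, which the dates in the labels give, correlated with r between 0.299 and 0.537 in all 13 pairs. In 52 pairs of other runs r lay between -0.469 and 0.473, and in 13 pairs of the same title number between 0.218 and 0.537. These ranges overlap and do not separate run from day or title number. The run was used as a block beside the main fit, and the members whose call it changes are named. Title numbers 4 and 5 do not follow the runs. The number of arrays limits the precision. The scripts were tested on simulated data.

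Values are given for the 3 immunoproteasome subunits, the 3 they replace and PSME1, for the gene of each class with the smallest adjusted p in each comparison, and for up to 4 genes of each list. Other genes with array values (PSMB4, PSMC3IP) were chosen after their values were seen. The members and the lists (other 26S parts, ubiquitin delivery, regulators of proteasome transcription, MHC class I, interferon signalling and markers of precursor B, T and NK, monocyte and granulocyte, and erythroid and platelet cells) were chosen with earlier results of these data known. Listed genes without a single-gene probe set were left out of the counts of their list. The interferon-type motif was added after values were seen. Promoter sequences are from RefSeq (GRCh38.p14). Alternatives were the variance filter, a filter on dim genes, the brightest probe set, single probe sets, cyclic loess, equal medians, blocks, array weights, a trended robust fit, only the groups compared, a stricter threshold, single days and each array left out.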

Additional observations from a re-analysis of the deposited data

Results flagged for a closer look

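In 4 of 60 groups of arrays tested, 1 array stood apart from the others by Dixon's criterion at the 95% level, where chance gives about 1 in 20. PSMB10 read 10.64 in untreated replicate 2, where the other untreated arrays lay between 10.47 and 10.49. PSMB5 read 10.38 in the same array, where the others lay between 10.22 and 10.23. Both genes' 8 h calls were lost without this array. PSMA4 read 12.01 in 8 h replicate 4 (run 5), where the other 8 h arrays lay between 12.08 and 12.09. PSMB10 minus PSMB7 was -0.89 in untreated replicate 3, where the other untreated arrays lay between -1.09 and -1.07.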

How the results depend on the processing

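Beside the fit without a block (0 higher and 4 lower at 8 h, 0 and 26 at 24 h against untreated cells, 0 and 18 at 24 h against 8 h), the count of proteasome genes higher at 8 h was 1 with a block by run, by title number or by day, 4 on day 1 alone and 1 on the other days. The count lower at 8 h was 8 with the title number as a block, 7 with the run as a random block, 10 with array weights, 0 at an adjusted p below 0.01, 2 on day 1 alone and 13 on the other days, and 2 to 6 with 1 array left out. It was 2 without 8 h replicate 3, untreated replicate 3 or untreated replicate 4. The count higher at 24 h was 2 with the run or the day as a block or the run as a random block, 1 with the title number as a block, and 1 on day 1 alone and on the other days alone. The count lower at 24 h was 16 on day 1 alone, otherwise within 1.5 times 26. The count lower at 24 h against 8 h was 28 with the day as a block, and 14 to 20 with 1 array left out. The variance filter, cyclic loess, equal medians, the dim filter, the brightest or single probe sets, the fit of only the groups compared and the trended fit left all counts within 1.5 times. Calls over all genes changed too: with the run as a block 15.2% of all genes were lower at 8 h, against 11.0% without it. For the title number, day, random block, array weights and left-out arrays, the shares of all genes are not given here. Those counts are therefore not read as particular to proteasome genes. The cause of the differences between these fits was not tested.

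With the run as a block, PSMB8 minus PSMB5 was greater by 0.50 at 8 h, 0.75 at 24 h and 0.26 between them, PSMB9 minus PSMB6 was -0.25 at 24 h, and PSMB10 minus PSMB7 was 0.16 between 8 h and 24 h. The exact sign-flip test used for the block cannot pass with 4 or 5 runs. On the days other than day 1 they were 0.60, 0.84, 0.24, -0.14 and 0.15, again with too few arrays to pass. On day 1, with no test, PSMB8 minus PSMB5 was 0.36 at 8 h and 0.66 at 24 h, and PSMB9 minus PSMB6 -0.27 and -0.36. With 1 array left out PSMB8 minus PSMB5 lay between 0.43 and 0.53 at 8 h and between 0.69 and 0.79 at 24 h, and PSMB9 minus PSMB6 between -0.25 and -0.21 at 24 h. These comparisons with untreated cells lost their calls when an array of either group compared was left out, as fewer permutations are then possible; those of 24 h with 8 h kept theirs. Of the values of single genes under the alternatives, 1480 kept their side of the threshold, 48 passed only there and 35 no longer passed, and none reversed while called.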
